A study of Mus musculus with 10 samples.

Results

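The 10 genes described here are Fkbp5, Tsc22d3, Per1, Zbtb16, Sgk1, Pdk4, Ddit4, Errfi1, Angptl4 and Klf9, a set known for induction by glucocorticoid hormones, by fasting, or by both. They were taken by gene symbol from the 54446 genes of the deposited table, and all 10 were found there. The set was chosen with earlier results of these data known. The samples are whole esophagi of C57BL/6 mice, wild type in genotype, profiled by CEL-Seq, a method that reads transcripts at their 3′ end. The 5 control libraries, A1 to A5, come from vehicle-treated mice. The other 5, C1 and D1 to D4, come from mice in which OXA, a contact allergen, was used to bring on experimental eosinophilic esophagitis (EoE). No allele was altered in either group. The dose, schedule and route of OXA, the age and sex of the mice, their feeding, the hour of collection and the meaning of the letters A, C and D are nowhere stated. Whether each library is a separate mouse is not said either, so the p-values weigh differences against library-to-library spread, which may be technical.

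Glucocorticoids bind the glucocorticoid receptor, Nr3c1, which waits in the cytoplasm with the chaperone Hsp90 and moves to the nucleus once it holds hormone. There it binds a short palindrome in DNA and switches on genes such as Fkbp5, Tsc22d3, Per1 and Sgk1, while it holds back many inflammatory genes. In fasting, glucocorticoids act beside the transcription factors of the FoxO and PPAR families, which turn cells from glucose to fat: Pdk4 and Angptl4 are their textbook targets. Swallowed topical glucocorticoids are also a standard treatment of eosinophilic esophagitis. No glucocorticoid treatment is named in the labels of these mice.

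The tissue carried the markers of its label. The summed normalized count of 12 genes of differentiated squamous epithelium, led by the keratins Krt4 and Krt13, was 674686 to 1138770 in vehicle and 229561 to 601469 in OXA. A normalized count is the number of reads of a gene divided by a size factor of its library. Depth lay between 3675479 reads in D2 and 12108822 in A4, and 1 read was worth 0.519 (A4) to 1.81 (D2) normalized counts. Of the 10 eosinophil markers only 3 were high enough to test: Alox15 and Ear6 rose, and Ear2 did not pass the test. With no filter on low values 3 of 9 were called higher. Epx and Ccr3 were at 0 in all vehicle libraries, and Prg3 was at 0 in all 10 libraries.

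To show what the receptor and its partners could read in these genes, the 250 bases before each annotated start were searched on both strands in RefSeq sequence (GRCm38.p6). Windows existed for 8 of the 10 genes, 17 windows in all, and for 27025 symbols and 32851 windows genome-wide. Zbtb16 and Angptl4 had no window in that set. Sgk1 had the most windows of the 8 genes. The percentages below are shares of windows and not of genes, and a gene with several windows has more places for a match. The full glucocorticoid response element, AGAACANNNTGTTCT, was present in 3 of the 32851 windows (0.00913%), and one of them lies before a start of Sgk1, 189 bases upstream of it at chr10:21993701-21993715. The single arm AGAACA, which is part of that element, was in 16.1% of windows, among them windows of Sgk1 and Tsc22d3. The E-box CACGTG, read by the clock proteins, was in 6.02% of windows and occurred before Per1, Fkbp5 and Sgk1. The cyclic AMP response element TGACGTCA was in 1.55% of windows and occurred before Errfi1. The FoxO element GTAAACA was in 3.17% of windows and occurred before Klf9, and the PPAR element AGGTCANAGGTCA was in 0.0335% of windows and in none of the 17. The D-box TTATGNAA, another clock element, was in 3.07% of windows and occurred before Per1, and the GC box GGGCGG was in 32.7% and occurred before Ddit4, Errfi1, Fkbp5, Per1, Sgk1 and Tsc22d3. In Sgk1 the E-box overlaps a TGTTCT arm. Each stretch below is shown because it holds the match, which is in capitals; it runs 5′ to 3′ on the strand of its gene. A match is a string of letters and not a measured binding site. Only these exact letters within 250 bases of a start were searched, so no match does not mean that a gene lacks an element.
Sgk1, chr10:21993671-21993745, plus strand, receptor element: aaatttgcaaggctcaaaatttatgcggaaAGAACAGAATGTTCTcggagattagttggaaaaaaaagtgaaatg
Per1, chr11:69098753-69098818, plus strand, E-box: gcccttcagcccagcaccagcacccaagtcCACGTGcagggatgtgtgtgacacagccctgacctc
Fkbp5, chr17:28486283-28486348, minus strand, E-box: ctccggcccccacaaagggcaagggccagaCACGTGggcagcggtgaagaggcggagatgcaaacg
Errfi1, chr4:150854989-150855056, plus strand, cyclic AMP element: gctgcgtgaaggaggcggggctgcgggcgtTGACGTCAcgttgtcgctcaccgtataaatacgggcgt
Klf9, chr19:23141096-23141162, plus strand, FoxO element: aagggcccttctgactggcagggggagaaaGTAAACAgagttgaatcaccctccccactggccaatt

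Of the 10 genes, 7 were lower in OXA than in vehicle at an adjusted p under 0.05 and none was higher (limma on log2(normalized count + 1), two-sided, Benjamini-Hochberg adjustment over the 14712 genes whose mean reached 5). Over all tested genes, 14.2% were called lower and 15.7% higher. Pdk4 and Angptl4, both regulators of fuel use, had the lowest log2 changes, followed by Ddit4, Per1 and Errfi1, while Fkbp5 and Tsc22d3 fell less. Klf9, Sgk1 and Zbtb16 did not pass the test. The median log2 change of the 10 was −0.86, beside −0.01 over all tested genes. In 6 of the 10, namely Tsc22d3, Per1, Pdk4, Ddit4, Errfi1 and Angptl4, every OXA library was below every vehicle library, which held for 10.4% of all tested genes.

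**Figure D1:**
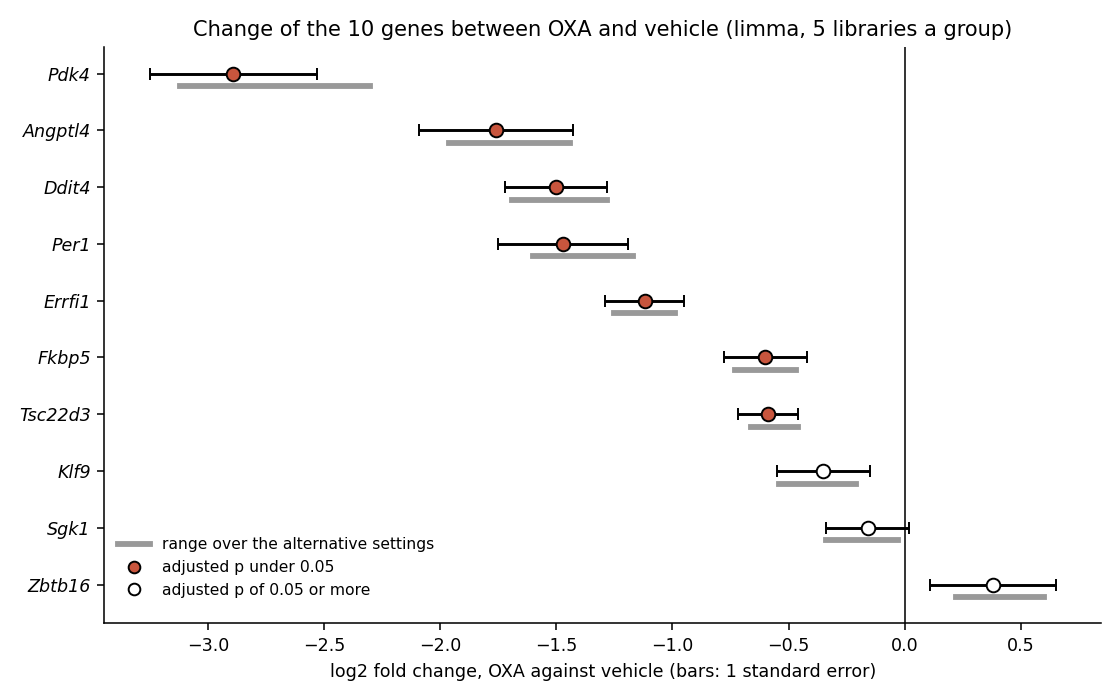
Log2 fold change of each of the 10 genes between OXA and vehicle (x axis; points with bars of 1 standard error, 5 libraries a group), with filled points for adjusted p under 0.05 and grey bars for the range over 24 alternative settings. Pdk4 is farthest to the left at −2.89, and the grey bar of no gene crosses 0.

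Pdk4 (chr6:5483051-5496309) encodes the kinase that shuts off pyruvate dehydrogenase and so spares glucose. Its normalized count was 813, 879, 1126, 1512 and 1437 in A1 to A5, and 167, 204, 154, 279.7 and 51.1 in C1 and D1 to D4. The highest OXA library, D3, was far below the lowest vehicle library, A1, and D4 stood lowest with 32 reads. The mean was 1153 ± 317 (SD, n = 5) in vehicle and 171 ± 83.0 in OXA, a 6.74-fold difference, and the log2 change was −2.89 ± 0.36 (SE; limma adjusted p = 5.06e-05). In whole tissue, fewer cells of a type and less RNA per cell cannot be told apart, here and for every gene below.

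Angptl4 (chr17:33773450-33781575) encodes a secreted inhibitor of lipoprotein lipase, the enzyme that frees fatty acids from blood lipids. It was scarce: 26.7, 18.0, 39.0, 36.9 and 52.9 normalized counts in A1 to A5, and 9.16, 7.11, 12.7, 8.62 and 7.98 in C1 and D1 to D4. The OXA libraries held between 5 (D4) and 12 (C1) reads of it, so each OXA value is coarse, yet all 5 lay under the lowest vehicle library. The log2 change was −1.76 ± 0.33 (SE; limma adjusted p = 0.00121), from a mean of 34.7 ± 13.2 (SD, n = 5) to 9.11 ± 2.13.

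Ddit4 (chr10:59949369-59951834), also called REDD1, brakes the growth kinase mTORC1 under stress. Its vehicle libraries lay close together at 130.5, 142, 142, 135 and 142 in A1 to A5, against 51.1, 40.5, 47.1, 84.3 and 31.9 in C1 and D1 to D4. The vehicle libraries spanned a factor of 1.09 and the OXA libraries a factor of 2.64, with D3 highest and D4 lowest. The mean fell from 138 ± 5.49 (SD, n = 5) to 51.0 ± 19.98, a log2 change of −1.50 ± 0.22 (SE; limma adjusted p = 2.35e-04).

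Errfi1 (chr4:150853919-150869192), also called MIG6, is an inducible inhibitor of the EGF receptor, which drives growth of the esophageal epithelium. It stood at 240.4, 218, 229, 197 and 212 in A1 to A5, and at 108, 107, 141, 80.5 and 76.6 in C1 and D1 to D4. Again the groups did not overlap, and D2 was the highest OXA library. The log2 change was −1.12 ± 0.17 (SE; limma adjusted p = 3.18e-04).

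Per1 (chr11:69095217-69110260) encodes a repressor of the circadian clock that glucocorticoids also induce directly. Its normalized count was 216, 235, 153, 195 and 203 in A1 to A5, and 85.5, 91.7, 101, 74.7 and 30.3 in C1 and D1 to D4. D4 was set well below the other OXA libraries and rested on 19 reads. The mean fell from 201 ± 30.6 (SD, n = 5) to 76.7 ± 27.7, a log2 change of −1.47 ± 0.28 (SE; limma adjusted p = 0.00132).

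Tsc22d3 (chrX:140539228-140600659), better known as GILZ, is a glucocorticoid-induced protein that restrains NF-kappaB and AP-1. It was measured at 1111, 1012, 1225, 973 and 1155 in A1 to A5, and at 650.4, 737, 646, 891 and 731 in C1 and D1 to D4. D3, the highest OXA library, came near A4, the lowest vehicle library, but the groups did not overlap. The log2 change was −0.59 ± 0.13 (SE; limma adjusted p = 0.0036), a fall to 66.8% of the vehicle mean.

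Fkbp5 (chr17:28398794-28517527) encodes the co-chaperone that lowers the receptor's affinity for hormone and is its best known feedback target. It stood at 306, 334, 237, 249.8 and 196 in A1 to A5, and at 171, 208, 121, 199 and 171 in C1 and D1 to D4. The groups overlapped, since A5 was below D1 and D3. The log2 change was −0.60 ± 0.18 (SE; limma adjusted p = 0.0245), to 65.8% of the vehicle mean. Of the 7 calls, this was the one that some alternatives ended. The change was −0.47 with an adjusted p of 0.113 when values were scaled to library totals, and the adjusted p was 0.0642 without A1 and 0.0676 without A2 (log2 changes −0.54 and −0.51). A transcript of unknown status on the same strand within Fkbp5, AC154912.3, had 35.8 normalized counts in vehicle and 22.2 in OXA. How reads that overlap both were counted is not stated.

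The other 3 genes did not pass the test, which does not show that their levels were alike. Klf9 (chr19:23141226-23167211), a Krüppel-like transcription factor that glucocorticoids induce, was at 1079, 1249, 766, 998 and 571 in A1 to A5 and at 697, 855, 570.3, 775 and 667 in C1 and D1 to D4. The vehicle libraries spread over a factor of 2.19, and A5 lay level with the lowest OXA library, D2. Its log2 change was −0.35 ± 0.20 (SE; limma adjusted p = 0.201), and without A5 it was −0.51 with an adjusted p of 0.0399.

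Sgk1 (chr10:21882184-22000203) is the serum- and glucocorticoid-inducible kinase that keeps epithelial sodium channels at the cell surface. Its searched windows held the exact receptor element shown above. Sgk1 stood at 699, 575, 649, 485 and 764 in A1 to A5 and at 483, 441, 654, 493 and 798 in C1 and D1 to D4. The groups overlapped throughout, with D4 the highest and D1 the lowest of all 10 libraries. The log2 change was −0.16 ± 0.18 (SE; limma adjusted p = 0.527), and it was −0.29 without D4 and −0.08 without D1.

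Zbtb16 (chr9:48653997-48836222), or PLZF, is a zinc finger transcription factor strongly induced by glucocorticoids in many cells. It was the sole member with a positive value, at 31.8, 45.8, 33.1, 41.0 and 21.5 in A1 to A5 and 39.7, 48.3, 43.5, 69.0 and 28.7 in C1 and D1 to D4. The groups overlapped, and D3 was highest. The log2 change was 0.38 ± 0.27 (SE; limma adjusted p = 0.317), and it was 0.22 without D3 and 0.23 without A5.

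**Figure D2:**
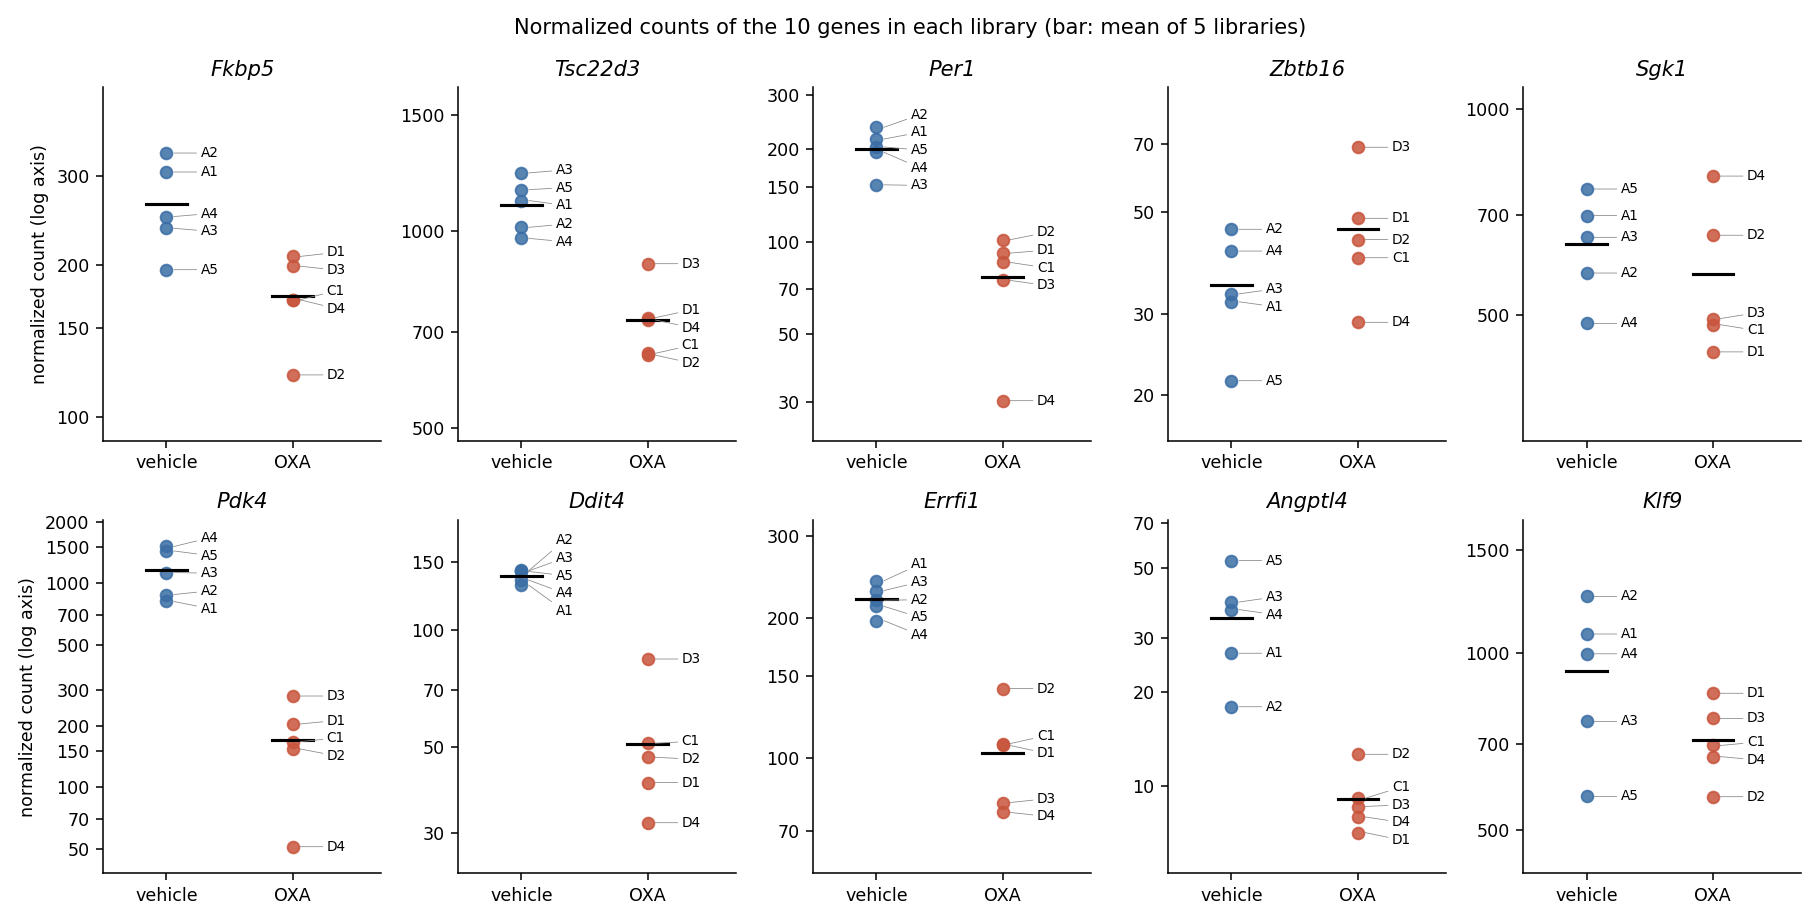
Normalized count of each of the 10 genes (log y axis, scaled per gene) in the 5 vehicle and 5 OXA libraries, each point labelled with its library and the black bar giving the group mean. The groups are apart for Tsc22d3, Per1, Pdk4, Ddit4, Errfi1 and Angptl4 and overlap for Fkbp5, Zbtb16, Sgk1 and Klf9.

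The esophagus of the mouse has a coat of striated muscle, and its share varied between libraries. The summed normalized count of 25 striated muscle genes, none of them at 0, was 242522 to 339013 in vehicle and 122809 to 458277 in OXA, so the groups overlapped. Of the 25 genes 3 were called lower and 1 higher, and the most abundant, Tnnc2, Acta1 and Ckm, did not pass the test. That count rested on single libraries: without D1, 11 of the 25 were called lower, with a median log2 change of −0.67 against −0.41 over all 10 libraries, and without the 3 shallowest libraries (D2, D4 and A5) 1 was called lower, with a median of 0.01. Within vehicle, Fkbp5 and Klf9 followed the order of this sum exactly, from A2 through A1, A4 and A3 to A5. A5, with the lowest vehicle sum, was the highest vehicle library for Sgk1 and Angptl4. Within OXA, D1 and D3 had the highest sums, 458277 and 331913, and were also the highest 2 libraries for 5 of the 10 genes, namely Fkbp5, Tsc22d3, Zbtb16, Pdk4 and Klf9. D4 had the lowest sum and was the lowest OXA library for 5 genes, namely Per1, Zbtb16, Pdk4, Ddit4 and Errfi1. The reverse also occurred: D1 was the lowest OXA library for Sgk1 and Angptl4, and D4 was the highest for Sgk1. The share of all tested genes with such orders was not computed. With a striated muscle score as a covariate, 6 of the 10 genes were called lower; the adjusted p of Fkbp5 became 0.0535, with a log2 change of −0.47. The part of the muscle share in the change of the 10 genes was not tested beyond this fit.

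**Figure D3:**
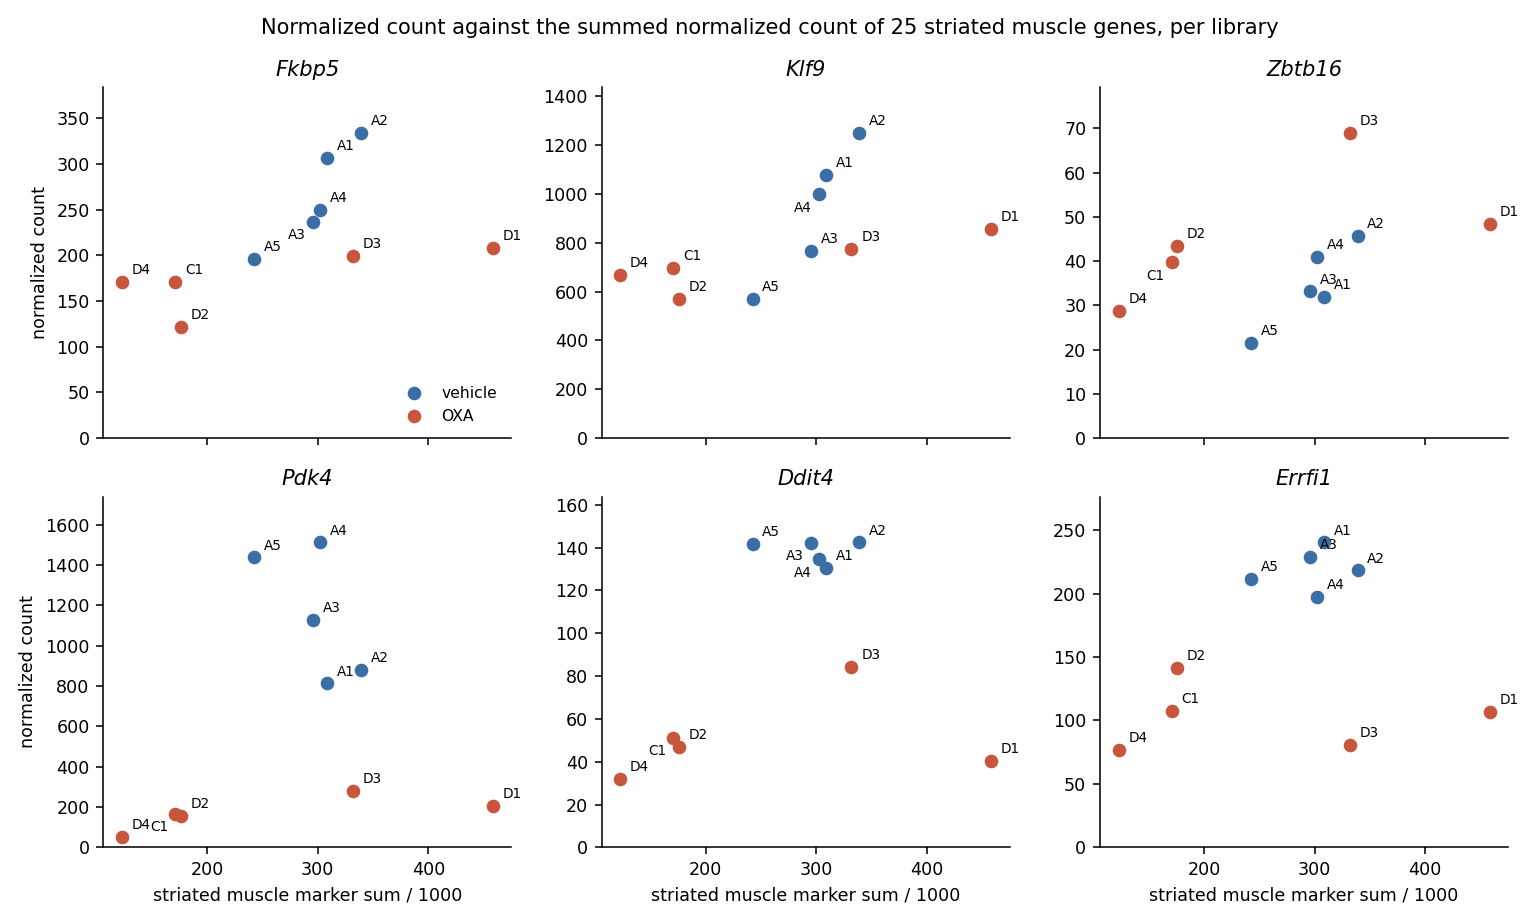
Normalized count of 6 of the genes (y axis, from 0) against the summed normalized count of 25 striated muscle genes (x axis, divided by 1000), 1 point per library. Fkbp5 and Klf9 line up with the sum within vehicle, while Pdk4, Ddit4 and Errfi1 are lower in all OXA libraries than in any vehicle library.

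Markers of other cell types were counted as well, beside shares of 14.2% lower and 15.7% higher over all tested genes. Of the 12 markers of differentiated squamous epithelium 7 fell and 1 rose, and their summed level did not overlap between the groups. Among markers of basal epithelium 2 of 10 were called higher and 2 lower, Krt14 higher and Krt15 lower among the most abundant; this became 1 higher and 4 lower without D4, and 1 higher and 6 lower with the striated muscle covariate. All 11 macrophage and monocyte markers rose, as did 9 of 10 T cell markers and 7 of 9 tested B and plasma cell markers. Of 7 tested neutrophil markers 5 rose and 1 fell. With no filter on low values, 7 of 10 B and plasma cell markers and 4 of 10 neutrophil markers were called higher. The macrophage sum was 2933 to 5292 in vehicle and 6353 to 12257 in OXA. Of the 8 tested adipocyte markers 3 were called higher, Fabp4 and Cfd among them, and 6 without D4 or with the muscle covariate, while the adipocyte sum overlapped (6624 to 12663 in vehicle, 4984 to 19351 in OXA), and Ucp1 was at 0 in all vehicle libraries. Of 9 smooth muscle markers 3 were called lower, and 7 without A3. Of 10 endothelial markers 1 was called higher, none without A3, A4, A5, C1, D1 or D2, and 4 without the 3 shallowest libraries. Of 10 fibroblast markers 2 were called higher, and 1 without A2, A4 or C1. The summed levels of basal, smooth muscle, endothelial and fibroblast markers overlapped between the groups. Of 7 tested mast cell markers 3 were called higher, and 2 of 10 with no filter on low values. The part of these marker changes in the change of the 10 genes was not tested.

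The receptor itself did not pass the test. Nr3c1 stood at 386 ± 64.6 (SD, n = 5) normalized counts in vehicle and 387 ± 101 in OXA, a log2 change of −0.01 ± 0.18 (SE; limma adjusted p = 0.963), which turned to 0.12 with scaling to library totals. The mineralocorticoid receptor Nr3c2 was at 32.7 ± 16.7 and 29.7 ± 16.8. Hsd11b1, which regenerates active hormone inside cells, was at 44.8 ± 10.8 and 51.3 ± 24.2, and its cofactor-supplying partner H6pd was at 99.8 ± 17.3 and 75.1 ± 13.4 (limma adjusted p = 0.107). Abcb1a and Abcb1b, pumps that export steroids, had log2 changes of −1.37 ± 0.76 and 0.88 ± 0.43. Abcb1a was at 0 in D4 and at 15.3 to 37.7 in the other OXA libraries, and its OXA mean was 58.5% of the vehicle mean. Abcb1b was at 5.72 in A5 and at 21.4 to 44.7 in the other vehicle libraries. Star, the cholesterol carrier of steroid synthesis, had a log2 change of 1.34 ± 0.66. None of the 7 tested genes of receptor and steroid handling was called. The enzymes Hsd11b2, Cyp11a1, Cyp11b1 and Cyp21a1 were too low to test, with group means under 1.

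Of 16 chaperones and cofactors of the receptor 2 rose, 1 fell and 13 did not pass the test, shares no larger than those over all tested genes. Hsp90aa1, the stress-inducible Hsp90, went from 2782 ± 577 to 5668 ± 1583 (SD, n = 5; log2 change 1.01 ± 0.22, limma adjusted p = 0.0034). Stip1, which hands clients from Hsp70 to Hsp90, rose by 0.58 ± 0.17. Dnajb1, an Hsp40 partner of Hsp70, had a log2 change of −0.84 ± 0.16 (limma adjusted p = 0.00121). Crebbp, a coactivator, was at 0.36 ± 0.16 and did not pass.

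A wider list of 40 genes that glucocorticoids induce in other tissues had 38 tested members, of which 11 fell and 3 rose, with a median log2 change of −0.26. Without D2, 6 rose; without D1 the median was −0.43; and with scaling to library totals 9 fell and 5 rose, with a median of −0.13. Il1r2, the decoy receptor for interleukin-1, had the smallest p. It went from 533 ± 80.5 to 50.4 ± 21.6 normalized counts (SD, n = 5), a log2 change of −3.47 ± 0.26 (SE; limma adjusted p = 7.61e-07). Klf15, which drives amino acid breakdown in fasting, went from 176 ± 11.7 to 58.2 ± 18.0 (log2 change −1.64 ± 0.21). The stress kinase Map3k6 fell likewise, with a log2 change of −1.20 ± 0.23. In the opposite direction Zfp36, which destabilizes cytokine mRNA, rose by 0.79 ± 0.14. Lcn2 and Nfil3, named after their values were seen, were the other 2 called higher.

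Among 26 genes that glucocorticoids hold back, 14 could be tested: 8 rose and 1, Il1a, fell, with a median log2 change of 0.87. The filter took the mean over all 10 libraries, so genes low in vehicle could pass it through high OXA values. With a mean of at least 1, 8 of 21 were called higher. With no filter on low values 7 of 25 were, with a median of 0.85. The adhesion molecule Vcam1 went from 70.4 ± 10.4 to 243 ± 51.3 (SD, n = 5; log2 change 1.76 ± 0.18, limma adjusted p = 1.07e-05). The chemokines Ccl7, Cxcl10 and Cxcl5 had log2 changes of 2.64 ± 0.33, 3.52 ± 0.56 and 3.74 ± 0.89. Macrophage and T cell markers rose in the same libraries, and their part in these values was not tested. Il1a lost its call without A3 (adjusted p = 0.065). Without the 3 shallowest libraries, 5 of the 14 were called higher instead of 8.

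Of 20 FoxO and muscle atrophy genes 10 fell and 1, Mstn, was called higher, with a median log2 change of −0.64. Without the 3 shallowest libraries 8 were called lower, with a median of −0.43, and with scaling to library totals 8, with −0.51. With the striated muscle covariate 10 were called lower, with a median of −0.46. Fbxo32, the atrogin-1 ubiquitin ligase of wasting muscle, went from 598 ± 184 to 245 ± 60.2 (SD, n = 5; log2 change −1.27 ± 0.22, limma adjusted p = 7.49e-04). Sesn1, Txnip and Foxo4 had log2 changes of −1.07 ± 0.14, −1.01 ± 0.16 and −1.16 ± 0.24. Sesn1 restrains mTORC1 and Txnip restrains glucose uptake. Mstn, the muscle growth inhibitor myostatin, was named after its value was seen; without A2, A4, A5, D1 or D3 its adjusted p was 0.0539 to 0.0694.

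Of 34 genes of the PPAR and fasting response, 28 were tested, 13 were called lower and 1 higher, with a median log2 change of −0.55. The higher one, Ppard, was named after its value was seen, and without A1, A2, A3, A4, C1, D1 or D3 its adjusted p was 0.0507 to 0.084. Without the 3 shallowest libraries 10 of the 28 were called lower, with a median of −0.40, and with scaling to library totals 11, with −0.42. With the striated muscle covariate 13 were called lower, with a median of −0.49. Acot1, an acyl-CoA thioesterase, went from 280.4 ± 62.5 to 52.5 ± 12.98 (SD, n = 5; log2 change −2.40 ± 0.20, limma adjusted p = 2.29e-06). Ucp3, a mitochondrial carrier of muscle that rises in fasting, had −1.82 ± 0.23, and Acadm of fatty acid oxidation went from 658 ± 39.8 to 339 ± 102. The lists for FoxO, PPAR and glucocorticoid targets were drawn up with earlier results of these data known and share genes, so their counts are descriptions.

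**Figure D4:**
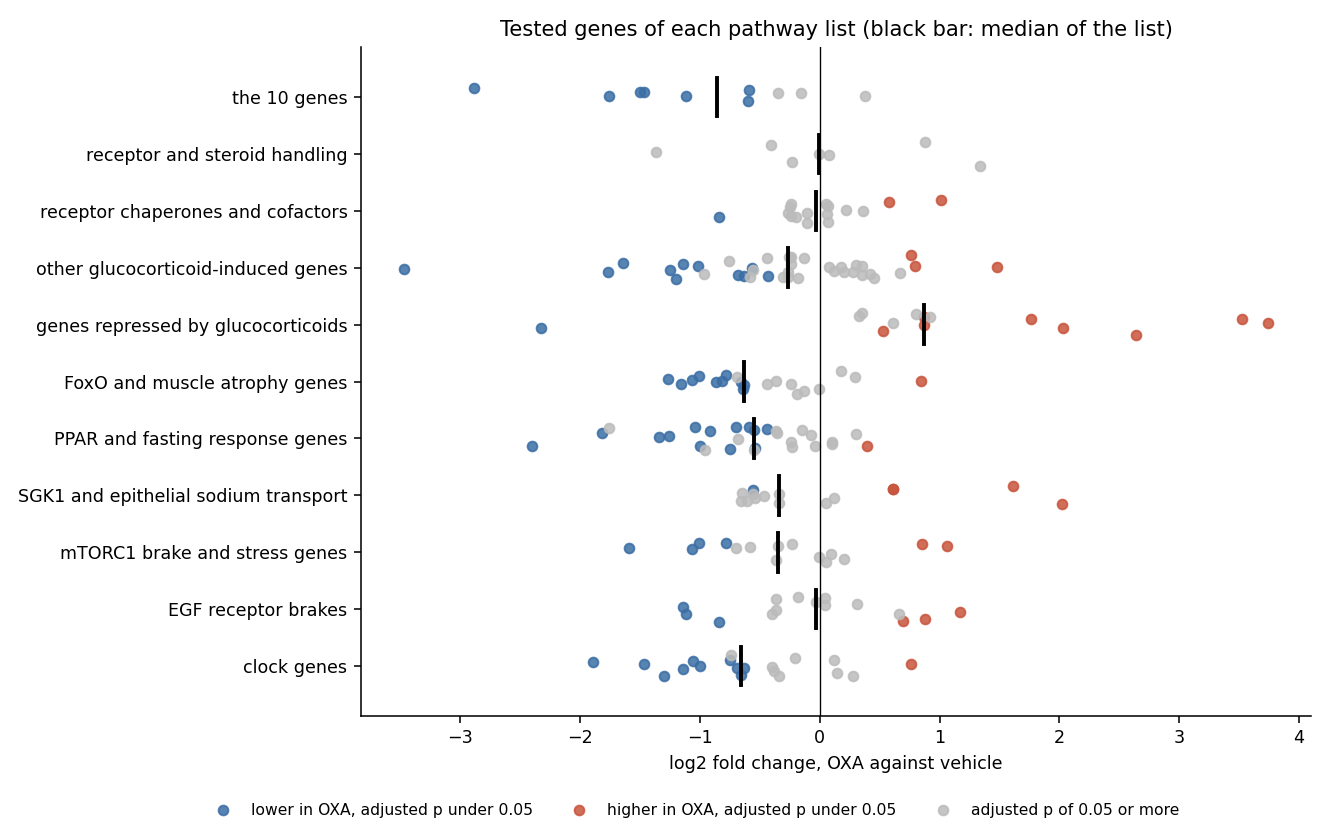
Log2 fold change (x axis, OXA against vehicle) of every tested gene of the pathway lists, 1 point a gene, coloured by whether and in which direction it passed an adjusted p of 0.05, with a black bar at the median of each list. The medians run from −0.86 for the 10 genes to 0.87 for genes repressed by glucocorticoids, and most lists hold points on both sides of 0.

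The relatives of each gene were compared next, to see whether a whole family moved. The counts given for each family include the member itself. Without the member, 2 of 5 tested genes of the Pdk family, 2 of 2 of Per and 2 of 4 of Angptl were called lower. The same held for 2 of 12 of the FKBP family, none of 3 of Tsc22d and 9 of 18 clock genes. Among the pyruvate dehydrogenase kinases and phosphatases, Pdk2, the broadly expressed kinase, fell by 1.30 ± 0.31 on the log2 scale (305 ± 38.0 to 139 ± 79.2 normalized counts, SD, n = 5). Pdk1 (−0.07 ± 0.13, and 0.06 with scaling to library totals) and Pdk3 (−0.55 ± 0.23) did not pass. The phosphatase Pdp1, which reverses the kinases, was called lower at −0.56 ± 0.17; it lost the call with scaling to library totals (adjusted p = 0.073) and without A2, A4 or D3 (adjusted p = 0.0606, 0.0585 and 0.0591). Pdp2 was at 0.49 ± 0.23 and did not pass. Thus 3 of the 6 fell and none rose, although Pdp2 was called higher without D1 (0.65, adjusted p = 0.0326). With the striated muscle covariate, without the 3 shallowest libraries or without D4, 4 were called lower. With scaling to library totals, with the replicate block, or without A4 or D3, 2 were.

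All 3 period genes were called lower. Per2 went from 277 ± 45.9 to 119 ± 46.9 (SD, n = 5; log2 change −1.30 ± 0.26), and Per3 from 399 ± 94.3 to 256 ± 50.4 (−0.63 ± 0.19). Per3 lost its call with scaling to library totals (adjusted p = 0.0995) and without A1, A2 or A4 (adjusted p = 0.0525, 0.0623 and 0.0575). Of the 19 clock genes 10 were called lower and 1, Nfil3, higher, with a median log2 change of −0.66; the adjusted p of Nfil3 was 0.0539, 0.0561 and 0.0683 without A3, A5 and D3. Dbp and Ciart, outputs or modifiers of the clock, had log2 changes of −1.14 ± 0.20 and −1.06 ± 0.20, and Tef went from 1408 ± 78.4 to 711 ± 111. The core activators Arntl (0.28 ± 0.39) and Clock (0.14 ± 0.17), chosen for mention after their values were seen, did not pass.

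Ddit4l, the paralog of Ddit4 found mainly in muscle, went from 497 ± 61.5 to 298 ± 120.5 (SD, n = 5; log2 change −0.82 ± 0.23, limma adjusted p = 0.016), with adjusted p of 0.0517 when scaled to library totals and 0.0533 without the 3 shallowest libraries. Of the 4 Tsc22d genes Tsc22d3 was called lower, while Tsc22d1, Tsc22d2 and Tsc22d4 had log2 changes of 0.08 ± 0.18, −0.32 ± 0.22 and −0.35 ± 0.14 and did not pass. Tsc22d4 was called lower without D1 (−0.44, adjusted p = 0.0309) and Tsc22d2 without the 3 shallowest libraries (−0.77, adjusted p = 0.0023). The differences between Tsc22d3 and its relatives were not tested. Sgk3, called higher at 0.64 ± 0.21, lost its call without A1, A2, A5, D2, D3 or D4, with adjusted p from 0.052 (without D2) to 0.072 (without A5), and Sgk2 was too low to test.

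In the angiopoietin-like family 3 of 5 tested genes fell. Angptl7 (12.5 ± 4.41 to 3.67 ± 2.99, SD, n = 5; log2 change −1.81 ± 0.57) and Angptl2 (471 ± 49.1 to 347 ± 54.4; −0.45 ± 0.14) were called beside Angptl4. Both were fragile. The adjusted p of Angptl7 was 0.125 without the 3 shallowest libraries, 0.075 without A1 and 0.0589 without A5. That of Angptl2 was 0.11 with scaling to library totals and 0.0716, 0.0544 and 0.0675 without A1, A3 and D3. Angptl1 (0.03 ± 0.28) and Angptl6 (−0.32 ± 0.31) did not pass, and Angptl8 was too low to test.

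The larger families were mixed. Of 13 tested FKBP immunophilins 3 fell, Fkbp5, Fkbp3 and Fkbp9, and 1, Fkbp14, rose. Fkbp3 had the smallest p (log2 change −0.73 ± 0.18, limma adjusted p = 0.00626). Of these, Fkbp9 had an adjusted p of 0.053 without A3 and 0.091 with scaling to library totals, and Fkbp14 had 0.0537 to 0.119 without A1, A2, A4, A5, C1, D1, D3 or D4. Fkbp4, the co-chaperone that competes with Fkbp5 on the receptor, was at 1680.3 ± 241 and 1554 ± 225 and did not pass. Among 14 tested Krüppel-like factors Klf15 fell and Klf7 (1.64 ± 0.26) and Klf2 (0.44 ± 0.15) rose. These shares were no larger than those over all tested genes, 14.2% lower and 15.7% higher. The adjusted p of Klf2 was 0.0503 to 0.0834 without D4 or any of A1 to A5.

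Around Sgk1, 4 of 15 genes of sodium transport were called higher and 1 lower, with 2 lower without A5, D1 or D2. Their median log2 change was −0.34, and −0.21 with scaling to library totals. With the striated muscle covariate 4 were called higher and 3 lower. The kinases Stk39 and Wnk1, which tune chloride cotransport, rose by 0.61 ± 0.13 and 0.61 ± 0.17. Nedd4, a ubiquitin ligase, was lower at −0.56 ± 0.17, with adjusted p of 0.097 when scaled to library totals and 0.0521, 0.058 and 0.0532 without A1, A2 and A4. Scnn1g, a subunit of the channel that Sgk1 protects, was named after its value was seen; it was called higher at low levels (4.95 ± 4.31 and 20.3 ± 16.9), and without A1, A4, A5, C1, D1, D2 or D3 its adjusted p was 0.0501 to 0.101.

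Beside Ddit4, the list of mTORC1 brakes and stress genes gave 4 of 15 lower and 2 higher, with a median log2 change of −0.35, which was −0.14 without D2, −0.23 without A4 and −0.16 without the 3 shallowest libraries. Chac1, which degrades glutathione in the amino acid stress response, had a log2 change of −1.59 ± 0.31, and Hif1a, the transcription factor of the hypoxic response, rose by 1.06 ± 0.22. Brakes of the EGF receptor, Errfi1 among them, went both ways, with 3 of 15 tested higher and 3 lower. With the striated muscle covariate 5 were lower. Without Errfi1, 3 of 14 were higher and 2 lower, beside 15.7% higher and 14.2% lower over all tested genes. Lrig1, another inhibitor of the receptor, went from 151 ± 7.50 to 67.7 ± 5.61 (SD, n = 5; log2 change −1.14 ± 0.14, limma adjusted p = 5.14e-05), and Spry1 had −0.84 ± 0.15. Socs5 and the ubiquitin ligase Cbl, which remove the receptor, rose by 1.17 ± 0.16 and 0.88 ± 0.14.

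The genes whose log2 levels ran most nearly parallel with 4 of the members over the 10 libraries were picked by Pearson correlation, as a description of libraries that share depth, tissue makeup and treatment. For Fkbp5 they were Nr4a1 (r = 0.975), Lrrfip2 (0.958) and Gm10925 (0.954). Nr4a1, an immediate-early nuclear receptor, went from 169 ± 64.3 to 83.4 ± 22.9 (SD, n = 5). For Tsc22d3 they were Bphl (0.973), Kdf1 (0.968) and Psmd6 (0.967). For Pdk4 they were Vps72 (0.990), Stard7 (0.983) and Defb6 (0.981), and for Zbtb16 they were B130034C11Rik (0.938), Fras1 (0.923) and Ssu2 (0.919), all 3 near or under 10 normalized counts in both groups.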

How the data were processed

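The deposited table holds a signal per gene and library, which the authors made by dividing gene counts by a size factor of each library; this is read from the values, since 100% of them were whole multiples of a step of their library within a tolerance of 0.007. Per the submitters' processing notes, which give no roles, the tools include HTSeq 0.11.2, DESeq2 1.18.1, Bowtie2 2.2.6 and TopHat2 2.1.0, on GRCm38. No source used here states the strand setting, the annotation release or whether molecular identifiers were used. Intervals from read counts would cover counting error only. Coordinates of genes are those of the table, on GRCm38.

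The 10 members, the gene lists and the rule for naming genes (all members, their small families, up to 4 genes of smallest p per pathway list, the most abundant markers, the closest 3 by correlation) were chosen with earlier results of these data known. OXA was compared with vehicle by limma 3.58.1 with a mean-variance trend on log2(value + 1) for 14712 genes with a mean of at least 5, two-sided, with Benjamini-Hochberg adjustment and a threshold of 0.05. Fold changes on this scale understate the change of low genes. Alternatives were other pseudocounts (0.5 and 5), filters and scalings, edgeR 4.0.16 and DESeq2 1.42.0 on the recovered reads, covariates and libraries left out. The gene test was tested on simulated data. Where a symbol stood on more than 1 row, the row with the higher total was used. A marker or list gene under the filter was not tested. A few genes that the naming rule covers are not reported here.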

Additional observations from a re-analysis of the deposited data

How the results depend on the processing

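Each of the 10 genes was refitted under 24 alternatives, and none changed sign in any. Of the 7 calls, those of Tsc22d3, Per1, Pdk4, Ddit4, Errfi1 and Angptl4 were kept in all 24. Fkbp5 lost its call with scaling to library totals (−0.47), with a striated muscle score as covariate (−0.47) and without A1 or A2 (−0.54 and −0.51); over single libraries left out its log2 change ran from −0.70 to −0.48. Klf9 was called without A5 (−0.51), and over single libraries left out it ran from −0.51 to −0.23. The cause was not tested. Scaling to library totals moved the median of all tested genes from −0.01 to 0.12, so the change of Fkbp5 relative to that median was −0.59. It raised the share of calls that were higher from 52.5% to 65.4% (2917 higher, 1542 lower, against 2309 and 2085). With scaling to library totals or the muscle covariate, 6 of the 10 were called lower. Without the 3 shallowest libraries 7 of the 10 were called lower.

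Whether the numbers in the library names pair the samples is not known. Deviations of same-numbered libraries correlated between −0.234 and 0.19, which cannot settle it with so few libraries. C1 and D1 share the number of A1, and no OXA library shares the number of A5. With the number in the library name as a replicate block, 1853 genes were called higher and 1490 lower, and 7 of the 10 genes lower. In that fit A5 is alone in its block and adds nothing to the contrast. On the recovered reads edgeR called 2411 higher and 1972 lower, and DESeq2 2627 and 2249. Depth limits Angptl4 and Zbtb16 most, with 5 to 12 reads of Angptl4 per OXA library and as few as 15 (A5) of Zbtb16.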
